A study of Cucurbita moschata with 6 samples.

Results

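The flavonoid and anthocyanin genes of the pumpkin (Cucurbita moschata) hypocotyl were examined in RNA from a study of how far-red light affects stem elongation. Members were the genes whose product name in the deposited table holds chalcone, flavon, flavan or anthocyan, which gave 63 of 32205 genes. They comprised 38 genes named for enzymes of the pathway and its side chains. The others were 20 reductases and hydroxylases named for isoflavones, and 5 homeobox factors named after ANTHOCYANINLESS 2. The 38 are called pathway enzymes by name alone, and what they act on was not tested. Poly(A) RNA was taken from the hypocotyl, the seedling stem under the seed leaves, once the cotyledons had opened. The growth room gave 14 h of artificial light (28 °C) and 10 h of darkness (18 °C) to all of them. The 2 groups, SCK and SR, had 3 libraries each. Neither name is explained in the labels, and SCK is read here as the control because CK is a customary abbreviation for one. Far-red light for 120 s is given as the treatment on all 6 samples, so the labels do not say how the light regimes of the groups differed. The labels do not tie the libraries to separate plants. The p-values therefore reflect only how far these libraries spread, which may be technical.

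Flavonoids are made from phenylalanine. Phenylalanine ammonia-lyase, cinnamate 4-hydroxylase and 4-coumarate--CoA ligase give coumaroyl-CoA. Chalcone synthase joins it to malonyl-CoA, and chalcone isomerase closes the ring to a flavanone. Flavanone 3-hydroxylase and flavonol synthase lead to flavonols, other reductases and dioxygenases lead to anthocyanidins, and glycosyl, acyl and methyl groups are added last. In seedlings the early steps are classic light-induced genes that need the transcription factor HY5. Isoflavones are made mainly by legumes, so names with isoflavone in a pumpkin gene reflect sequence likeness to legume proteins. None of the 63 product names was that of a dihydroflavonol reductase, a leucoanthocyanidin dioxygenase or a leucoanthocyanidin reductase. The table has 2 genes named probable 2-oxoglutarate-dependent dioxygenase ANS, for anthocyanidin synthase, another name of the leucoanthocyanidin dioxygenase, and both lie outside the name rule.

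Changes are given for SR relative to SCK as log2 fold change ± SE from edgeR's quasi-likelihood test, with p-values adjusted over 23509 tested genes by the Benjamini-Hochberg method. Levels are deposited FPKM, fragments scaled to gene length and library size. A gene was tested if it reached 1 FPKM in at least 3 libraries. Deposited counts summed to between 52300725 and 72356397 per library, and the same 3-replicate design called 14.4% of all tested genes at an adjusted p under 0.05, 7.20% as higher and 7.16% as lower in SR. Without TMM factors, the edgeR scaling between libraries, the median change of all tested genes moved from 0.01 to 0.14, and 2602 genes were called higher against 1155 lower, where TMM gave 1692 and 1683. All changes here are relative to the TMM scaling. In 57.7% of tested genes, and in 14 of the 27 tested members, the level of SCK replicate 3 fell between those of the other 2 SCK libraries. Of 2760 tested genes at least 2-fold apart between SCK replicates 1 and 2, SCK replicate 3 lay between them in 2384. Among such members it did so in 7 of 8. The cause was not tested. With SCK replicate 3 left out edgeR called 0 genes (5558 had an unadjusted p under 0.05). DESeq2 on the same 5 libraries called 3607, among them 6 members.

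Lists of markers showed how the libraries differed otherwise. The summed level of 29 photosynthesis genes (1 at 0 throughout) ran from 9754 to 16183 FPKM in SCK and from 7938 to 9835 FPKM in SR. Of the 26 tested, 10 fell, beside 7.16% of all tested genes. Of 22 heat shock genes taken as signs of handling, 1 was at 0 throughout and the sum was 159 to 256 FPKM in SCK and 336 to 404 in SR. Sums of 21 xylem genes (5 at 0 throughout) were 43.5 to 54.0 and 59.3 to 99.9 FPKM, and those of 8 pollen-specific genes (2 at 0) 43.6 to 45.0 and 69.7 to 104 FPKM. Of 26 phloem genes, with 0 at 0 throughout, 24 were tested. Of these 6 rose (25.0%, beside 7.20% of all tested genes) and 0 fell, with a median log2 change of 0.82. The groups did not overlap in 15 of the 24, beside 40.6% of all tested genes. The phloem sum, which a few very abundant genes dominate, was 4043 to 4267 FPKM in SCK and 3717 to 6494 FPKM in SR. The sums of 33 seed and 10 root genes overlapped between the groups, and 10 and 2 of these genes were at 0 throughout. The part of these differences in the results below was not tested. In bulk RNA, fewer cells of a type and less RNA per cell cannot be told apart.

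Most members did not reach the filter in this tissue. Of the 63, 15 had a count of 0 in every library, which alone does not show absence of expression, and 21 others stayed under the filter. The 27 tested members held 14 enzymes, 10 isoflavone-named genes and 3 factors. Among them 6 passed the test, 2 higher and 4 lower, which is 22.2% beside 14.4% of all tested genes. The SCK and SR levels did not overlap in 10 of the 27, or 37.0%, beside 40.6% of all tested genes. Only 1 of the 14 enzymes was called (7.14%), against 5 of the 10 isoflavone-named genes (50.0%) and 0 of the 3 factors. The median log2 change was -0.19 over the 27, -0.08 over the enzymes and 0.12 over the isoflavone-named genes, beside 0.01 over all tested genes. DESeq2 called 10 members, 3 higher and 7 lower, where it called 25.6% of all tested genes. Its additional calls were 4 enzymes. Leaving out SCK replicate 3 or SR replicate 3, edgeR called 0 members, with 9 and 10 at an unadjusted p under 0.05. It called 3 without SCK replicate 1 or SCK replicate 2 and 4 without SR replicate 2.

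**Figure D1:**
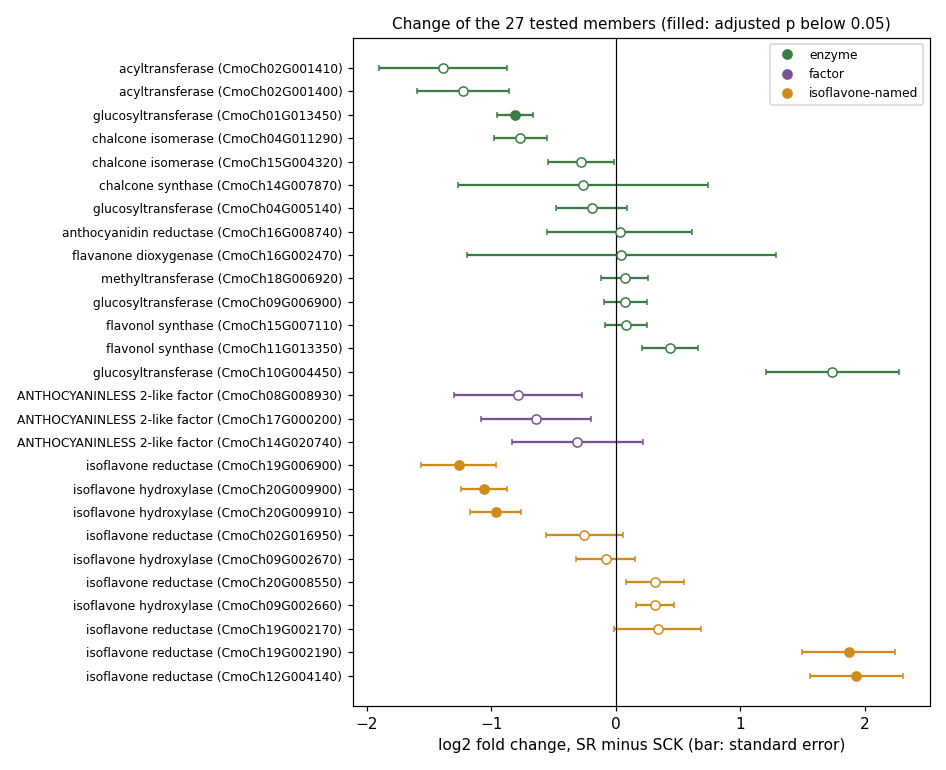
Log2 fold change of SR against SCK (horizontal axis, bars are standard errors) for the 27 tested members, by class. Filled points passed an adjusted p of 0.05: 1 enzyme lower, and 2 isoflavone-named genes higher and 3 lower.

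The entry step was low and uneven. Chalcone synthase, the first committed enzyme, is encoded by a run of 3 genes on chromosome 14 (4001292 to 4009276 in the table's coordinates; no source used here names the genome build). Both chalcone synthase-like genes (CmoCh14G007850 and CmoCh14G007860) had a count of 0 in all 6 libraries. Chalcone synthase 2 (CmoCh14G007870) read 5.41, 0.63 and 3.67 FPKM in SCK replicates 1 to 3 and 0.30, 5.35 and 3.56 FPKM in SR replicates 1 to 3. One library in each group, SCK replicate 2 and SR replicate 1, lay far below the other two, and the groups overlapped across their whole range. With an 18.3-fold gap between its highest and lowest library it varied more than any other tested member with counts in every library, and the group difference was far inside that spread (log2 change -0.26 ± 1.01, adjusted p = 0.883). Leaving out SCK replicate 1 or SR replicate 1 turned its sign (0.36 and 0.26).

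Chalcone isomerase, the second step, had 2 genes. The one named chalcone--flavonone isomerase-like (CmoCh15G004320) read 4.13, 4.54 and 5.15 FPKM in SCK and 2.76, 5.18 and 4.64 FPKM in SR, with overlapping groups (adjusted p = 0.502). The gene named probable chalcone--flavonone isomerase 3 (CmoCh04G011290) read 5.84, 4.35 and 5.45 FPKM in SCK against 3.86, 2.95 and 3.26 FPKM in SR. The Arabidopsis protein of that name is a non-catalytic relative of the isomerase that assists chalcone synthase. Every SR library lay below every SCK library, and the change of -0.77 ± 0.21 missed the threshold (adjusted p = 0.0550). It passed with DESeq2 (adjusted p = 0.00821) and in edgeR without SR replicate 1 (0.0456).

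The most abundant of the 38 pathway enzymes, isoflavone-named genes apart, was a flavonol synthase, which oxidizes dihydroflavonols to flavonols. Flavonol synthase/flavanone 3-hydroxylase-like CmoCh15G007110 read 25.3, 21.9 and 26.4 FPKM in SCK and 25.2, 36.8 and 24.2 FPKM in SR. SR replicate 2 alone stood above the rest (log2 change 0.08 ± 0.17, adjusted p = 0.775). Its relative CmoCh11G013350 read 7.52, 10.0 and 8.84 FPKM in SCK and 16.8, 12.3 and 9.93 FPKM in SR. The lowest SR value lay just under the highest SCK value, and the change of 0.44 ± 0.23 did not pass (adjusted p = 0.222). The 2 other flavonol synthase genes stayed under the filter, with at most 1.22 FPKM (CmoCh01G008190) and 2.17 FPKM (CmoCh04G024560).

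The 3 members named flavanone 3-dioxygenase, after the enzyme that hydroxylates flavanones, were low. Flavanone 3-dioxygenase 3 (CmoCh16G002470) read 1.74, 1.71 and 0.80 FPKM in SCK and 3.53, 1.22 and 0 FPKM in SR (adjusted p = 0.985). It shares 1539 bases with CmoCh16G002480 of the same name on the opposite strand, and although the library kit keeps strand, no source used here says whether the counting did, so the values of the pair may be mixed. CmoCh16G002480 reached 1.84 FPKM at most and CmoCh06G004140 had counts in SR replicate 1 alone. Flavonoid 3'-monooxygenase (CmoCh11G002040), which adds a hydroxyl to the flavonoid B ring, had 0 counts in every SCK library and at most 0.06 FPKM in SR. Putative anthocyanidin reductase (CmoCh16G008740) is named for the enzyme that turns anthocyanidins into flavan-3-ols. The table's KEGG annotation gives it ortholog K13082, and which enzyme it encodes was not tested. It read 0.42, 2.21 and 1.17 FPKM in SCK and 0.92, 1.21 and 2.08 FPKM in SR. There was no order between the groups (log2 change 0.03 ± 0.58, adjusted p = 0.978).

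The only enzyme call was a glucosyltransferase. Anthocyanidin 3-O-glucosyltransferase 2-like CmoCh01G013450 (chromosome 1, 10653596 to 10655029), named for the enzyme that adds glucose to anthocyanidins, fell by 0.81 ± 0.15 on the log2 scale (adjusted p = 0.0191). It read 8.19, 8.48 and 8.15 FPKM in SCK and 4.45, 5.48 and 5.69 FPKM in SR, or 8.27 ± 0.18 against 5.21 ± 0.66 (SD, n = 3). The SCK values lay close together and the groups were clearly apart. The table's KEGG annotation gives this gene no ortholog. The call was lost without SCK replicate 1, 2 or 3 (adjusted p = 0.0501, 0.0522 and 0.0911) and without SR replicate 3 (0.0592), and it held with DESeq2 and limma. Its neighbour CmoCh01G013470, of the same name and under the filter, read 0.75, 0.82 and 0.51 FPKM in SCK and 0.33, 0.20 and 0.38 FPKM in SR, which is the same order at a much lower level.

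Among the other glucosyltransferases, the most abundant was a further anthocyanidin 3-O-glucosyltransferase 2-like gene (CmoCh09G006900), at 8.16, 11.3 and 11.7 FPKM in SCK and 11.5, 10.6 and 13.7 FPKM in SR (adjusted p = 0.796). It shares 121 bases on the opposite strand with CmoCh09G006890, an uncharacterized gene that rose from 5.51 ± 0.85 to 12.1 ± 2.28 FPKM (adjusted p = 0.0245). UDP-glucose flavonoid 3-O-glucosyltransferase 7-like (CmoCh04G005140) was at 5.22 ± 0.74 and 4.96 ± 1.68 FPKM (adjusted p = 0.674). Flavonoid 3-O-glucosyltransferase-like CmoCh10G004450 read 0.48, 0.97 and 0.29 FPKM in SCK and 1.13, 3.14 and 2.17 FPKM in SR. All SR libraries lay above all SCK libraries at this low level, with a change of 1.74 ± 0.53 that did not pass (adjusted p = 0.0709, and 0.0128 with DESeq2). The remaining 6 of the 10 glucosyltransferases stayed under the filter, CmoCh01G013470 among them, and 2 were at 0 in every library.

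Only 2 of the 10 anthocyanin acyltransferases were tested, both of them coumaroyltransferases. The 3 coumaroyltransferase 1-like genes, named for the enzyme that adds coumaric acid to the sugar of anthocyanins, lie side by side on chromosome 2 (690085 to 703941). CmoCh02G001400 read 3.93, 8.31 and 6.32 FPKM in SCK and 3.71, 1.78 and 3.07 FPKM in SR. CmoCh02G001410 read 6.20, 4.92 and 4.63 FPKM in SCK and 1.33, 4.32 and 1.08 FPKM in SR. In both, the highest SR library came just under the lowest SCK library. Their changes of -1.23 ± 0.37 and -1.39 ± 0.51 did not pass with edgeR (adjusted p = 0.0677 and 0.111), and they passed with DESeq2 (0.00900 and 0.0294). The third gene of the run reached 0.39 FPKM at most. All 7 malonyltransferases were under the filter, and 4 of them had no count in any library. Of 4 flavonoid 3',5'-methyltransferase-like genes in a run on chromosome 18, CmoCh18G006920 alone was tested, at 9.21 ± 1.30 and 10.7 ± 1.71 FPKM (adjusted p = 0.826).

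**Figure D2:**
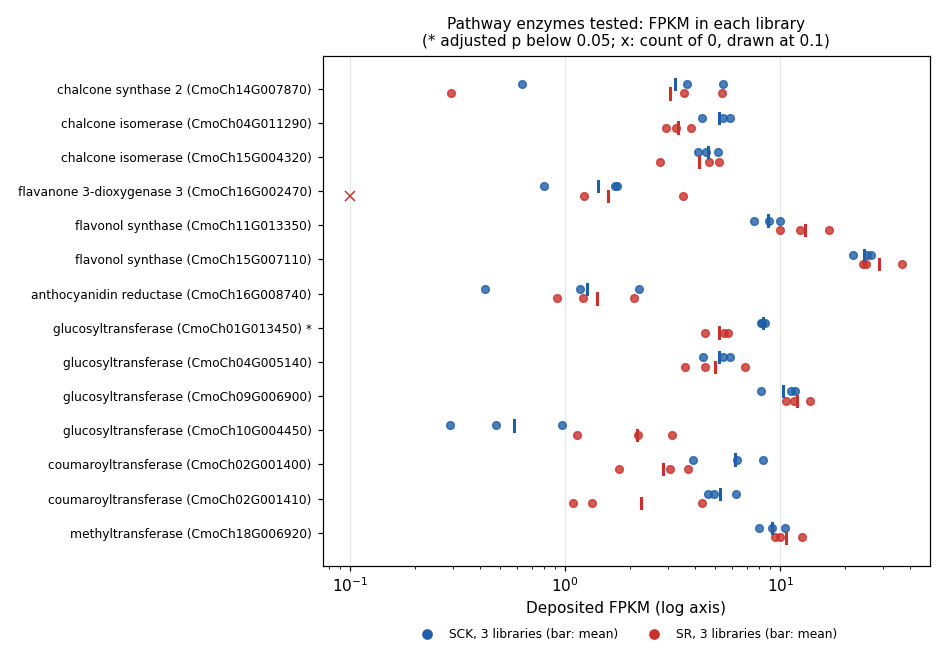
Deposited FPKM (horizontal log axis) of the 14 tested pathway enzymes in each SCK and SR library; bars mark group means and a cross marks a count of 0. The starred glucosyltransferase CmoCh01G013450 reads 8.15 to 8.48 FPKM in SCK and 4.45 to 5.69 in SR, while chalcone synthase 2 spans 0.30 to 5.41 FPKM with mixed groups.

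The isoflavone 2'-hydroxylases, cytochromes P450 that hydroxylate isoflavones in legumes, held the abundant members that fell. Isoflavone 2'-hydroxylase-like CmoCh20G009910 (chromosome 20, 5661890 to 5664317) read 92.4, 74.8 and 77.8 FPKM in SCK and 51.9, 52.4 and 33.9 FPKM in SR. Its neighbour CmoCh20G009900 (5647937 to 5650206) read 18.9, 15.3 and 18.1 FPKM in SCK and 10.5, 9.79 and 7.26 FPKM in SR. Both genes had every SR library below every SCK library, and they fell by 0.97 ± 0.20 and 1.06 ± 0.19 on the log2 scale (adjusted p = 0.0280 and 0.0188). The next copies in that run, CmoCh20G009930 and CmoCh20G009940, had no count in any library. No source used here says how reads shared by near-identical copies were counted, so the split between neighbours is uncertain. CmoCh20G009900 lost its call if SR replicate 3 (adjusted p = 0.0592) or SCK replicate 3 (0.0892) was left out. CmoCh20G009910 lost it without any one of SCK replicates 1 to 3 or SR replicates 2 and 3 (0.0519 to 0.0981).

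A second run of 6 isoflavone hydroxylases lies on chromosome 9 (1159525 to 1179273). CmoCh09G002670 read 10.4, 10.4 and 11.1 FPKM in SCK, and in SR it ran from 7.33 FPKM (SR replicate 1) to 15.1 FPKM (SR replicate 3), with SR replicate 2 between the lowest and highest SCK values. CmoCh09G002660 read 3.85, 4.51 and 3.88 FPKM in SCK and 4.47, 6.48 and 5.84 FPKM in SR. In contrast to the chromosome 20 pair, their groups overlapped and neither passed (adjusted p = 0.846 and 0.193). They share 1657 bases on opposite strands. The 4 others, all 3'-hydroxylase-like, stayed under the filter with at most 0.27 FPKM. 

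Isoflavone reductase-like proteins belong to a family of plant reductases. Outside legumes its characterized members act mostly on lignan and related phenylpropanoid substrates, such as the phenylcoumaran benzylic ether reductase of poplar. The 6 tested members went different ways. Isoflavone reductase-like protein CmoCh12G004140 (chromosome 12, 2551353 to 2553543) read 1.73, 5.26 and 3.67 FPKM in SCK and 10.9, 16.8 and 16.8 FPKM in SR. It rose by 1.93 ± 0.38 (adjusted p = 0.0228), the largest change among the tested members, and its lowest SR library stood well above its highest SCK library. Isoflavone reductase homolog CmoCh19G002190 (chromosome 19, 1457772 to 1460868) read 0.69, 1.68 and 1.23 FPKM in SCK and 3.38, 6.43 and 4.76 FPKM in SR, and rose by 1.87 ± 0.37 (adjusted p = 0.0243). In both genes SCK replicate 1 was the lowest of the 6 libraries. Both rises were lost without SCK replicate 3 (adjusted p = 0.0988 and 0.101), SR replicate 2 (0.0547 and 0.0592) or SR replicate 3 (0.0810 and 0.0803). CmoCh19G002190 shares 1526 bases with the PHL11-like myb gene CmoCh19G002200 on the opposite strand. That gene read 1.03, 2.28 and 2.42 FPKM in SCK and 1.56, 1.18 and 2.84 FPKM in SR and did not pass (adjusted p = 0.835).

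Isoflavone reductase-like protein CmoCh19G006900 fell by 1.26 ± 0.30 (adjusted p = 0.0378), from 2.20, 1.87 and 2.52 FPKM in SCK to 1.18, 0.69 and 1.13 FPKM in SR, again without overlap. The most abundant member of all was isoflavone reductase homolog CmoCh19G002170, the neighbour of the rising CmoCh19G002190. It read 81.2, 96.5 and 91.9 FPKM in SCK and 149, 61.2 and 160 FPKM in SR. The SR libraries lay on both sides of SCK, with SR replicate 2 the lowest of the 6, so the change of 0.34 ± 0.35 did not pass (adjusted p = 0.540). Without SR replicate 2 it was 0.67 with adjusted p = 0.0324. Isoflavone reductase-like protein IRL (CmoCh20G008550) was at 13.0 ± 1.20 and 17.6 ± 4.97 FPKM (adjusted p = 0.393), and homolog CmoCh02G016950 at 3.33 ± 0.76 and 3.09 ± 0.27 FPKM (adjusted p = 0.614). CmoCh02G016950 shares 673 bases on the opposite strand with CmoCh02G016960, a far more abundant MOB kinase activator gene. That partner fell from 155 ± 8.35 to 111 ± 5.01 FPKM (adjusted p = 0.0203). The fall of CmoCh19G006900 passed only without SR replicate 1 (0.0424) among the fits that leave out a library, with adjusted p = 0.0624 to 0.138 in the others.

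**Figure D3:**
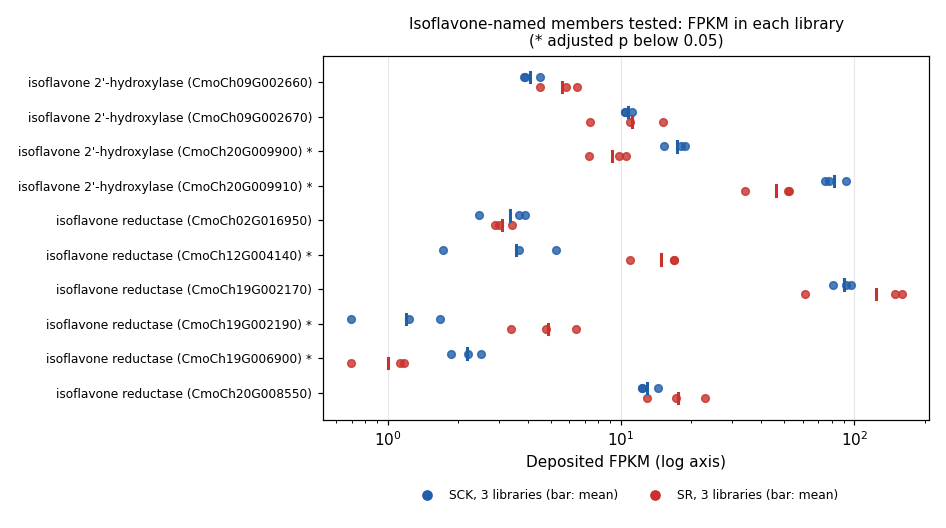
Deposited FPKM (horizontal log axis) of the 10 tested isoflavone-named members in each SCK and SR library, with bars at group means. The starred genes CmoCh12G004140 and CmoCh19G002190 lie higher in SR, and CmoCh19G006900, CmoCh20G009900 and CmoCh20G009910 lie lower, each without overlap of the groups.

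The table's KEGG annotation, which did not choose the members, put both falling hydroxylases under ortholog K13260, together with genes named as other cytochromes P450 of the CYP81 family. These genes were looked at after their values were seen, so their counts describe them only. Of 18 genes with this ortholog, 8 are members and 7 were tested. All 7 had a log2 change below 0, and 5 fell beside 7.16% of all tested genes. The most abundant, another cytochrome P450 of that family (CmoCh01G018620), read 665, 703 and 691 FPKM in SCK and 446, 524 and 399 FPKM in SR, a fall of 0.73 ± 0.15 (adjusted p = 0.0268) that limma did not call. A further one (CmoCh02G005160) fell by 1.76 ± 0.26, from 2.52 ± 0.50 to 0.81 ± 0.11 FPKM (adjusted p = 0.0141). CmoCh03G009740 fell from 12.4, 14.3 and 16.2 FPKM to 8.08, 5.21 and 2.28 FPKM (adjusted p = 0.0499), a call lost without TMM factors or without the filter. The same-named genes CmoCh20G009840 (71.8 ± 4.22 and 55.6 ± 9.68 FPKM) and CmoCh03G009730 (1.33 ± 0.09 and 0.87 ± 0.11 FPKM) had adjusted p = 0.0538 and 0.0886. In all 7 genes each SR library lay below each SCK library, and the groups did not overlap in either direction in 40.6% of all tested genes. With 1 library left out, edgeR called 0 of the 7 if it was SCK replicate 3 and 1 if it was SR replicate 3. It called 2 without either other SCK library, 4 without SR replicate 2 and 5 without SR replicate 1. DESeq2 called 7 with all libraries, beside 25.6% of all tested genes.

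**Figure D4:**
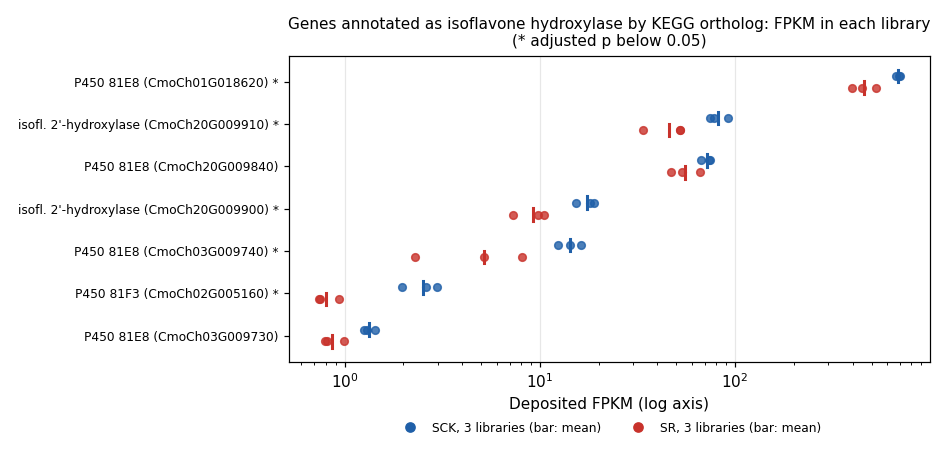
Deposited FPKM (horizontal log axis) in each SCK and SR library of the 7 tested genes that the table assigns to KEGG ortholog K13260, with bars at group means. From CmoCh01G018620 at 399 to 703 FPKM down to CmoCh03G009730 near 1 FPKM, the SR libraries lie left of the SCK libraries.

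ANTHOCYANINLESS 2 is a homeobox-leucine zipper factor of Arabidopsis that affects anthocyanin in tissue under the epidermis. Its 3 tested pumpkin namesakes followed the libraries rather than the groups. CmoCh17G000200 read 6.83, 2.95 and 4.53 FPKM in SCK and 1.73, 5.28 and 3.29 FPKM in SR. CmoCh08G008930 read 5.37, 2.44 and 3.23 FPKM in SCK and 0.96, 4.02 and 2.25 FPKM in SR, and CmoCh14G020740 read 4.54, 2.36 and 2.56 FPKM in SCK and 1.05, 4.92 and 2.63 FPKM in SR. All 3 were lowest in SR replicate 1, all groups overlapped, and none passed (adjusted p = 0.353, 0.328 and 0.721). The other 2 factors stayed under the filter.

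The genes upstream of the members were followed as lists by product name. Of 16 phenylalanine ammonia-lyase genes, 5 were tested, of which 2 rose and 0 fell, beside 7.20% of all tested genes called higher. The G4-like gene CmoCh18G009000 rose by 1.03 ± 0.21, from 1.11, 1.78 and 1.58 FPKM to 3.36, 3.70 and 2.96 FPKM (adjusted p = 0.0251). CmoCh20G005320 rose by 0.47 ± 0.12, from 7.26, 7.27 and 8.11 FPKM to 12.4, 10.9 and 11.1 FPKM (adjusted p = 0.0477). The most abundant, CmoCh10G007740, was at 28.3 ± 3.30 and 25.0 ± 1.03 FPKM (adjusted p = 0.150), so the summed level of the 16 genes moved little, from between 40.2 and 44.8 FPKM in SCK to between 45.3 and 47.7 FPKM in SR. CmoCh20G005320 was no longer called when any one library was left out (adjusted p = 0.0619 to 0.132) or when the filter was dropped. CmoCh18G009000 kept its call if SCK replicate 2 or SR replicate 1 was the one left out (0.0455 and 0.0480), and lost it for each of the others (0.0515 to 0.0997).

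Neither of 2 tested cinnamate 4-hydroxylases passed. The larger, trans-cinnamate 4-monooxygenase CmoCh02G006920, read 2.36, 9.75 and 6.24 FPKM in SCK and 8.85, 14.3 and 14.3 FPKM in SR (adjusted p = 0.209), with SCK replicate 1 far below the rest. None of 11 tested genes named 4-coumarate--CoA ligase passed either, with 2 at an unadjusted p under 0.05, where 33.3% of all tested genes had such a p. These were 4-coumarate--CoA ligase 1-like CmoCh14G010570, at 1.60, 5.27 and 3.62 FPKM and 7.50, 11.4 and 6.02 FPKM, and ligase 2-like CmoCh11G003950, at 20.7, 10.4 and 13.3 FPKM and 7.82, 11.6 and 5.81 FPKM. Their changes had opposite signs (1.12 ± 0.42 and -0.97 ± 0.33), and DESeq2 called both. The most abundant of the list, ligase-like 1 CmoCh18G006350, was at 14.1 ± 0.46 and 14.7 ± 2.41 FPKM (adjusted p = 0.773). The list also holds 4-coumarate--CoA ligase-like genes, whose relatives need not act on coumarate.  Acetyl-CoA carboxylase 1-like CmoCh15G007430, the cytosolic enzyme that makes malonyl-CoA, rose by 0.57 ± 0.13, from 5.02, 6.75 and 5.90 FPKM to 9.93, 10.1 and 8.63 FPKM (adjusted p = 0.0315). It was the 1 call among 5 tested genes of that list, the others being chloroplast biotin carrier subunits. Of these the most abundant, CmoCh14G011350, was at 19.5 ± 0.42 and 29.9 ± 6.81 FPKM (adjusted p = 0.0887). Among the fits that leave out 1 library, CmoCh15G007430 passed only without SCK replicate 2 (0.0471).

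A gene named for a core step, which the name rule missed, was more abundant than each of the 38 pathway enzymes among the members. Naringenin,2-oxoglutarate 3-dioxygenase (CmoCh06G005830) has the product name of a flavanone 3-hydroxylase, but the table's KEGG annotation gives it ortholog K02641. The other gene so named, CmoCh16G012830, has ortholog K00475 and had a count of 0 in every library. Which enzyme CmoCh06G005830 encodes was not tested. It read 118, 39.4 and 63.5 FPKM in SCK and 46.1, 62.4 and 41.3 FPKM in SR. SCK replicate 1 stood apart at the top and SCK replicate 2 was the lowest of all, so the groups overlapped (log2 change -0.72 ± 0.40, adjusted p = 0.252). The photosynthesis sum was likewise highest in SCK replicate 1 and, within SCK, lowest in SCK replicate 2, and the part of that spread in these values was not tested. Of the 2 genes named for anthocyanidin synthase, CmoCh16G005430 was at 10.1 ± 1.09 FPKM in SCK and 11.7 ± 0.92 FPKM in SR (adjusted p = 0.676). The other, CmoCh06G002200, stayed under the filter, with at most 2.77 FPKM, in SR replicate 1. The KEGG annotation puts both under K05278, the ortholog it also gives to the members named flavonol synthase.

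Regulators held 7 tested genes, of which none passed, with 2 at an unadjusted p under 0.05. Among all tested genes 33.3% had such a p. Both are HY5-like, named after the bZIP factor that promotes chalcone synthase transcription in light. CmoCh05G003890 read 129, 83.9 and 110 FPKM in SCK and 80.1, 80.5 and 75.6 FPKM in SR, and CmoCh12G002790 read 50.3, 35.9 and 41.8 FPKM in SCK and 29.0, 35.9 and 26.8 FPKM in SR. The SR libraries of both lay below the lowest SCK library, barely so for SR replicate 2 of CmoCh12G002790. Changes of -0.59 ± 0.18 and -0.63 ± 0.17 came close to the threshold (adjusted p = 0.0696 and 0.0552) and passed with DESeq2 (0.0197 and 0.0138). The third tested HY5-like gene, CmoCh01G015510, read 5.32, 2.62 and 3.66 FPKM in SCK and 3.83, 4.43 and 3.82 FPKM in SR, with overlapping groups (log2 change -0.09, adjusted p = 0.869). TRANSPARENT TESTA GLABRA 1 (CmoCh16G000190), the WD-repeat partner of MYB and bHLH factors in anthocyanin control, was at 9.63 ± 1.99 and 9.42 ± 1.21 FPKM (adjusted p = 0.566). MYB114-like CmoCh14G012670 lay the other way, at 1.03 ± 0.28 FPKM in SCK and 1.93 ± 0.48 FPKM in SR. Its groups did not overlap, and the change of 0.77 ± 0.33 did not pass (adjusted p = 0.155). MYB114-like CmoCh01G000450 and MYB111-like CmoCh08G012300 had overlapping groups (log2 change 0.35 and -0.04, adjusted p = 0.666 and 0.957).

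Of 57 genes named DETOXIFICATION, a family of transporters some of which carry flavonoids into the vacuole, 29 were tested, and 2 fell while 0 rose, a called share of 6.90% beside 7.16% of all tested genes called lower. DETOXIFICATION 8-like CmoCh09G012810 fell by 1.26 ± 0.16, from 75.9, 63.3 and 70.2 FPKM to 29.6, 39.6 and 27.2 FPKM (adjusted p = 0.0118). DETOXIFICATION 43-like CmoCh17G009290 fell by 2.23 ± 0.33, from 1.65, 2.08 and 2.12 FPKM to 0.61, 0.43 and 0.31 FPKM (adjusted p = 0.0142). Which substrates these transporters carry is not known from the table. In both, the groups were far apart, and each call was lost among the fits that leave out a library only without SCK replicate 3 (adjusted p = 0.0749 and 0.0764).

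**Figure D5:**
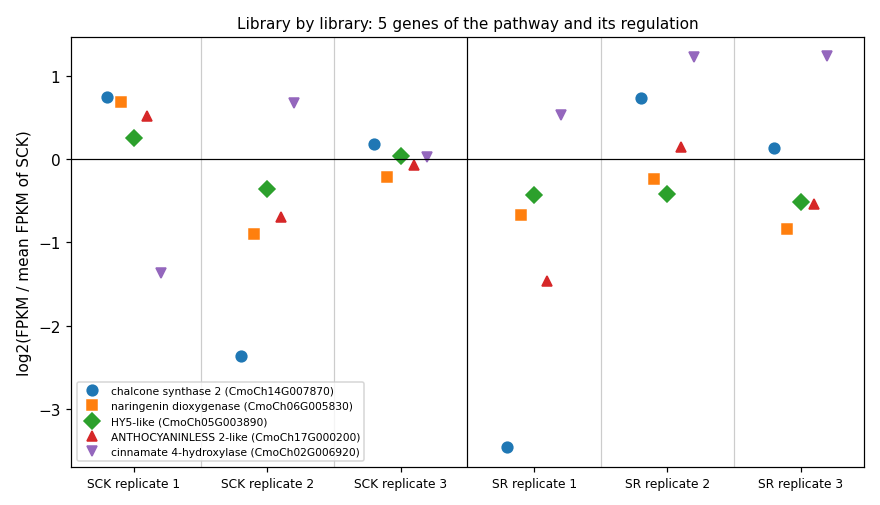
Level of 5 genes in each library relative to the SCK mean (vertical axis, log2 of FPKM over the SCK mean); the vertical black line separates SCK from SR, and the genes were chosen after their values were seen. Chalcone synthase 2 is low in SCK replicate 2 (0.63 FPKM) and SR replicate 1 (0.30 FPKM) and high in SCK replicate 1 and SR replicate 2, while HY5-like lies between 75.6 and 80.5 FPKM in all SR libraries.

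Position was shared by many members. Taking members of 1 role at most 5 places apart in gene order, 36 of the 63 stood in 12 runs of 2 to 6 genes. In the 12 runs usually 1 or 2 genes were tested: every run had at most 2 tested genes and 3 runs had none. The members of a run share ancestry and possibly reads, so they are not independent measurements of the pathway.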

How the data were processed

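A single table from the authors holds, for each gene and library, a whole-number count and an FPKM value, per the file headers. HISAT and StringTie are named without versions or roles, per the submitters' processing notes; no source used here gives the genome build, annotation, strand setting of the counting or handling of shared reads. The deposited counts were used as they stand; the value 4 occurred 1350 times against 567 for 3 and 516 for 5, so 1 read pair may be worth about 4 counts. The deposited FPKM was 0.0001 in all 28770 places with a count of 0, and such values are printed as 0. A further 6 columns of counts match no sample and were not used. None of the table's gene identifiers was found in the RefSeq gene table (0 matches), so names are the table's own and no sequence is shown.

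Genes with at least 1 FPKM in at least 3 libraries (23509) entered edgeR 4.0.16 (glmQLFit and glmQLFTest, TMM factors, R 4.3.3) with group as the only term. A gene was called at a Benjamini-Hochberg adjusted p under 0.05. Standard errors are the log2 fold change over the root of F. Alternatives were DESeq2 1.42.0, limma 3.58.1 on log2(FPKM + 1) and log2(FPKM + 0.1), edgeR without TMM factors, without the filter, on counts divided by 4, with a replicate block, and without each library. The fits were tested on simulated data. Within each group no pair of libraries was alike enough to be 1 library deposited more than once (chi-square per gene 31.8 to 237 on the counts as deposited), which does not show that they are independent samples.

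Values in every library are given for called members. In each role, the most abundant member and the tested one with the smallest p have values in every library or group means ± SD. For the other lists this holds for called and most abundant genes. Further genes were named after their values were seen. Members and lists were chosen with earlier results of these data known.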

Additional observations from a re-analysis of the deposited data

How the results depend on the processing

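DESeq2 called more than edgeR: 6026 genes in all, 10 members, 5 pathway enzymes and 13 genes of the upstream, regulator and transport lists, against 3375, 6, 1 and 5. Leaving out 1 library at a time, edgeR called 0 to 3437 genes, 0 to 7 members, 0 to 2 pathway enzymes, 0 to 5 isoflavone-named members, 0 to 6 genes of the other lists and 0 to 5 of the genes with ortholog K13260. The cause was not tested; each such fit has fewer libraries. The groups share replicate numbers, and deviations of same-numbered libraries correlated at -0.15, -0.25 and 0.09. Those of unlike number ran from -0.14 (SCK replicate 1 with SR replicate 3) to 0.26 (SCK replicate 1 with SR replicate 2). SCK replicate 2 with SR replicate 1 gave 0.16. Whether the libraries form pairs in another order was not tested. A replicate block gave 0 calls for all genes (6564 at an unadjusted p under 0.05), for members, pathway enzymes, isoflavone-named members, the other lists and the K13260 genes. The fit by DESeq2 without SCK replicate 3 and the K13260 genes were chosen after seeing the data. Without the filter on low values edgeR tested 48 members and called 6, with 11 at an unadjusted p under 0.05.

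Over 46 single genes and 13 alternatives, 491 of 598 values kept direction and side of the threshold, 69 lost a call, 15 gained one and 23 turned sign. The 23 belong to 9 genes with a log2 change of at most 0.31 in size, and no called gene turned sign. CmoCh16G002470 gave -0.88 and -0.14 by limma with pseudocounts of 0.1 and 1 and -1.07 with the replicate block, and CmoCh09G002670 gave 0.0018 and 0.0061 by limma and 0.056 without TMM factors. The fits without 1 library ranged from -0.37 to 0.66 for CmoCh16G008740, -0.91 to 0.36 for CmoCh14G007870, -1.39 to 0.63 for CmoCh16G002470, -0.11 to 0.19 for CmoCh15G007110, -0.54 to 0.0074 for CmoCh04G005140, -0.046 to 0.17 for CmoCh09G006900, -0.042 to 0.17 for CmoCh18G006920, -0.92 to 0.091 for CmoCh14G020740 and -0.37 to 0.12 for CmoCh09G002670.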

Other observations

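The table's KEGG map of flavonoid biosynthesis holds 78 genes, of which 17 are members. Some of its other genes have products of another kind: 5 of the 8 genes assigned to the chalcone isomerase ortholog are named vacuolar-sorting receptors, and 1 of the 6 assigned to the chalcone synthase ortholog is a pentatricopeptide repeat protein. The most abundant of these receptors, CmoCh03G015050, read 95.6, 93.1 and 98.9 FPKM in SCK and 133, 113 and 114 FPKM in SR (adjusted p = 0.381), far above the 2 chalcone isomerase genes at 2.76 to 5.84 FPKM. Of the 41 tested genes on this map 2 were called higher and 3 lower by edgeR, where 14.4% of all tested genes were called, and 0 of these 5 are members. On the map of isoflavonoid biosynthesis, 10 of 33 genes were tested and 5 fell, the K13260 genes described above.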
